A study of Mus musculus with 24 samples.

Results

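The genes described are the enzymes and chaperone of collagen folding and crosslinking: the lysyl oxidases Lox, Loxl1, Loxl2, Loxl3 and Loxl4, the lysyl hydroxylases Plod1, Plod2 and Plod3, the collagen chaperone Serpinh1 and the proteinase Bmp1. They were chosen by gene symbol, and all 10 were present among the 24016 symbols of the deposited table. Where a symbol had several RefSeq transcripts, the transcript with the highest mean level over all libraries was kept. Genes were tested where 6 or more libraries reached an RPKM of 1, which 9 of the 10 did and Loxl4 did not. RPKM counts the reads on the exons of a transcript per kilobase of its length and per M reads of the library, so levels of different genes can be set side by side.

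Lysine residues of procollagen chains are hydroxylated in the endoplasmic reticulum by the lysyl hydroxylases, and the folded triple helix is held by the chaperone HSP47, the product of Serpinh1, until it leaves the compartment. Outside the cell, Bmp1 cuts the C-terminal propeptide from procollagen, and lysyl oxidases turn lysines and hydroxylysines of the assembled fibrils into aldehydes that form covalent crosslinks. In skeletal muscle these steps build the connective tissue around and between the fibres, and this tissue is known to expand during repair after injury.

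The study sequenced poly(A) RNA of hindlimb muscle from C57BL/6 background mice taken 7 days after one femoral artery was tied off. Libraries came from 4 groups of 6: ischemic gastrocnemius of mice with type 2 diabetes, ischemic gastrocnemius of control mice, normoxic adductor of diabetic mice, and normoxic adductor of control mice. Every group had the ligation, and the labels give neither the age of the mice nor the way diabetes was produced. Gastrocnemius was ischemic in every library and adductor in none, so the muscle and its ischemia cannot be told apart in these data. Nothing in the labels says that the 6 libraries of a group came from separate animals, so p-values measure the spread between libraries. Muscle fibre markers (Acta1, Ckm, Tnnt3, Tnnc2, Myh4 and Mylpf) were high in every library, their summed RPKM running from 14349 to 90955.

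The library totals in the file headers lay between 7.13 and 15.6 M reads. The libraries fell into separate sets by their Gapdh level, a split that no label records. The first set held 14 libraries with Gapdh between 677 and 1757 RPKM (in either muscle, control replicates 1 to 3 and diabetic replicates 1 to 4). The other 10 libraries, the second set, had Gapdh between 0.365 and 13.7 RPKM. At this depth 3 reads of Loxl4 corresponded to 0.0354 to 0.0774 RPKM, and no gene of the 10 was at or under 3 reads in any library. Such floors cover counting error only.

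Promoter sequence from RefSeq (build GRCm38.p6) was held for 4 of the 10 genes, Loxl4, Plod1, Plod3 and Serpinh1. The stretch of 250 bases before the start is shown for 3 of them, a chaperone, a hydroxylase and an oxidase that differed widely in level, because an annotated GENCODE transcript follows these starts. Capitals mark matches, on either strand, to ACGTG (the core of the hypoxia response element), GGGCGG (the GC box) or CCAAT (the CCAAT box).
Serpinh1, chr7:99353240-99353489, minus strand: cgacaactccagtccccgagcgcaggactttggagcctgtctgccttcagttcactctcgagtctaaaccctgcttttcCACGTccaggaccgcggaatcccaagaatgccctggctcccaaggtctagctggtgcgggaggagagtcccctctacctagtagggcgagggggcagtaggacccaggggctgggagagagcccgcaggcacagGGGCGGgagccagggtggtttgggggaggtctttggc
Plod3, chr5:136986769-136987018, plus strand: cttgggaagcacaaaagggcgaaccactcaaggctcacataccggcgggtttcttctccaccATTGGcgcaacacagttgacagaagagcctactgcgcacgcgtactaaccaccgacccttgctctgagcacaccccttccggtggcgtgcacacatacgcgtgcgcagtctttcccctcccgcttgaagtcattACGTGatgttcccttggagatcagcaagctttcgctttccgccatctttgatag
Loxl4, chr19:42612807-42613056, minus strand: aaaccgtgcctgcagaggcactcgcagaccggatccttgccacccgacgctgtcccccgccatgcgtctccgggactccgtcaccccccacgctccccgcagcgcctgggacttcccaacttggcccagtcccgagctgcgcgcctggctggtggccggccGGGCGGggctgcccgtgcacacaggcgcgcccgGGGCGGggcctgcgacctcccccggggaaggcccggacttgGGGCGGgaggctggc
ACGTG was found in the Serpinh1 window, on the opposite strand at 171 to 167 bases before the start, and in the Plod3 window at 54 to 50 bases before it. Of all 32851 promoter windows of this length, 16.6% held ACGTG on either strand. GGGCGG occurred in the Serpinh1 window at 37 to 32 bases before the start and at 3 places in the Loxl4 window, and was held by 32.7% of all windows. CCAAT was found in the Plod3 window on the opposite strand, and 33.8% of all windows held it. GC content was 63.6% for Serpinh1, 55.6% for Plod3 and 76.0% for Loxl4, against a median of 52.4% over all windows. The letters TGANTCA (the AP-1 site) and GAANNTTC (a pair of heat shock element units) matched none of these 3 windows, and 6.75% and 6.69% of all windows held them. These matches describe the letters of the windows, and no binding was measured.

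Between ischemic gastrocnemius and normoxic adductor, the transcripts of the collagen enzymes differed widely. All 9 genes tested were higher in gastrocnemius than in adductor, in diabetic and in control mice, and in each of them the 6 gastrocnemius libraries lay above the 6 adductor libraries. In the ratio of mean RPKM, the lysyl oxidases, Serpinh1 and Bmp1 were 7.46-fold (Bmp1 in diabetic mice) to 23.9-fold (Lox in control mice) higher, and the lysyl hydroxylases 3.43-fold (Plod3 in diabetic mice) to 7.09-fold (Plod2 in control mice). Over all 12382 genes tested, 56.9% were called in diabetic mice (48.1% higher in gastrocnemius and 8.83% lower) and 63.1% in control mice (54.4% higher and 8.7% lower). Groups lay apart for 29% of genes in the higher direction and 2.33% in the lower in diabetic mice, and for 33.3% and 3% in control mice. A call in this direction was therefore common in the table as a whole. Loxl3 reached 1 RPKM in 12 of 12 gastrocnemius libraries and in 1 of 12 adductor libraries, so it passed the filter through gastrocnemius, and its call follows in part from that. Fold changes below are log2 differences of RPKM + 0.5 (± SE) from limma, with p-values adjusted by the Benjamini-Hochberg method over all genes tested and called under 0.05.

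The RPKM scale shifted between the muscles as a whole. The median log2 difference over all genes tested was 0.55 in diabetic mice and 0.66 in control mice, and -0.04 and -0.02 after median-of-ratios scaling. Calls split into 5958 higher and 1093 lower in diabetic mice, and 6730 higher and 1077 lower in control mice, against 3396 higher and 3248 lower, and 3520 higher and 3279 lower, after that scaling. Relative to the median of all genes, the 9 genes stood 1.06 (Plod3) to 3.23 (Lox) higher in diabetic mice, and 1.22 (Plod1) to 3.63 (Lox) higher in control mice. All 9 were also called higher under median-of-ratios scaling, by 0.98 to 3.16 in diabetic mice and 1.11 to 3.56 in control mice.

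**Figure D1:**
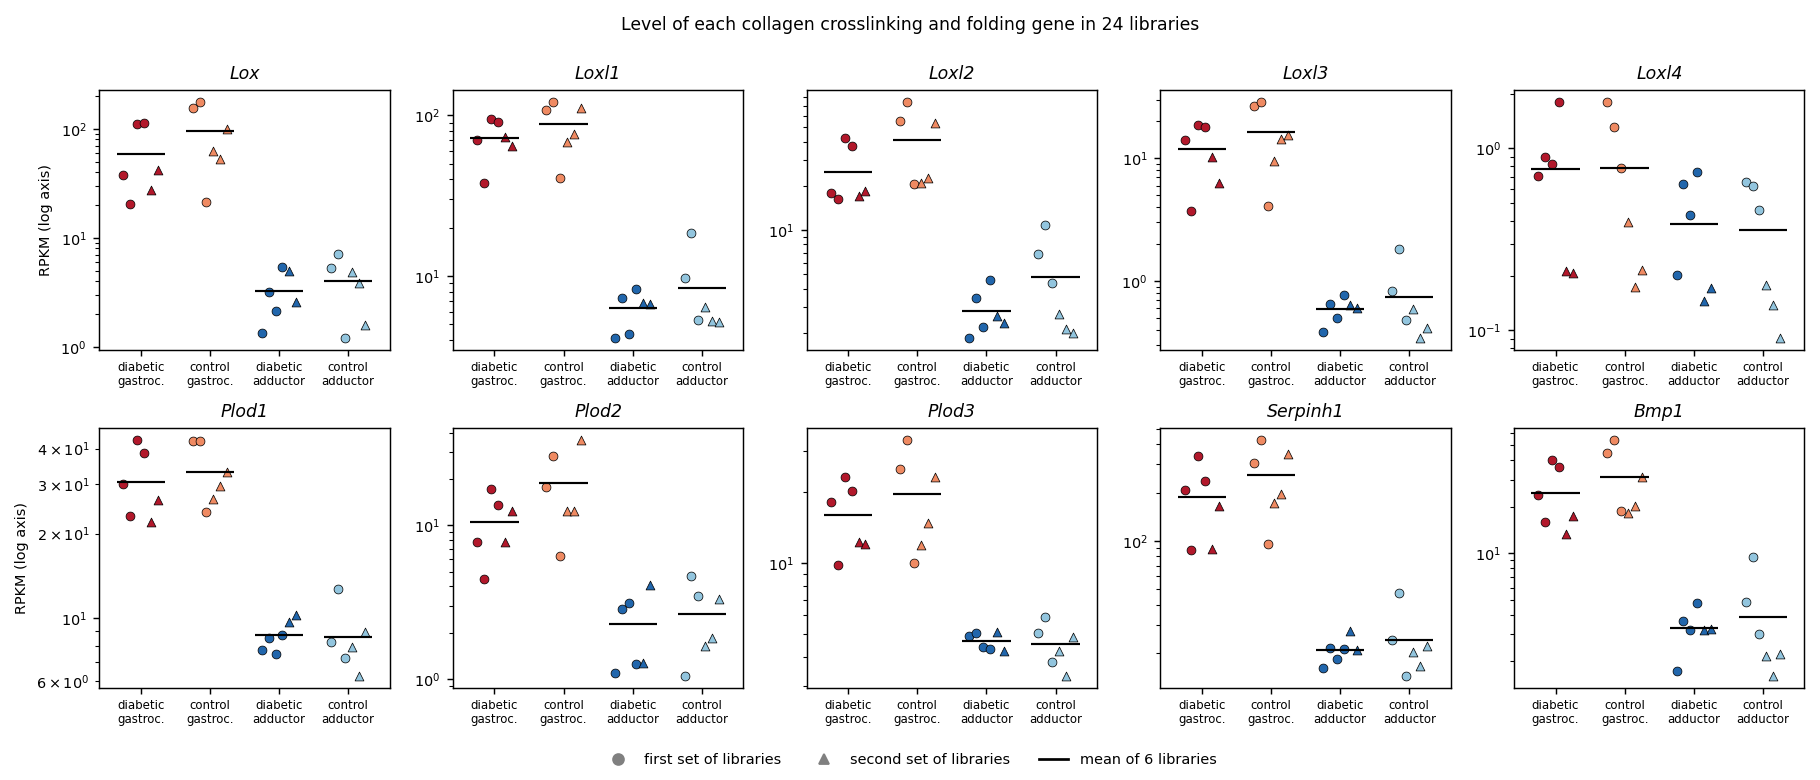
RPKM of each of the 10 genes (log axis) in the 24 libraries, by group; circles are libraries of the first set, triangles of the second, and bars the mean of 6. Within each mouse group, the gastrocnemius libraries of every gene but Loxl4 lie above the adductor libraries, while diabetic and control libraries of the same muscle overlap.

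Lox, the founding lysyl oxidase, which acts on both collagen and elastin, ran from 20.7 to 114 RPKM with a median of 39.7 in gastrocnemius of diabetic mice, against 1.34 to 5.36 with a median of 2.88 in their adductor. In control mice Lox ran from 21.5 to 177 RPKM with a median of 82.0 in gastrocnemius, against 1.21 to 7.09 with a median of 4.34 in adductor. The lowest gastrocnemius library was well above the highest adductor library in both mouse groups, and the gastrocnemius libraries themselves were widely spread. The difference was 3.79 ± 0.50 (limma, adjusted p = 1.3e-06) in diabetic mice and 4.30 ± 0.50 (limma, adjusted p = 2.1e-07) in control mice. Its kept transcript lies on chromosome 18 (mm9, 52675714 to 52689521, minus strand).

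Loxl1, an oxidase needed for elastic fibre formation in mice, was the most abundant family member in adductor. It ran from 37.9 to 95.7 RPKM with a median of 72.1 in gastrocnemius of diabetic mice, against 4.13 to 8.37 with a median of 6.78 in their adductor. Control mice had 40.6 to 121 RPKM with a median of 92.7 in gastrocnemius, against 5.19 to 18.6 with a median of 5.86 in adductor, where replicate 2 stood apart as the highest. Groups were again fully separate, at 3.40 ± 0.31 in diabetic mice (limma, adjusted p = 1.4e-08) and 3.38 ± 0.31 in control mice (limma, adjusted p = 1.3e-08). The Loxl1 transcript lies on chromosome 9 (mm9, 58135530 to 58161019, minus strand).

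Loxl2, which crosslinks collagen of basement membranes among other substrates, ran from 16.2 to 42.4 RPKM with a median of 18.2 in gastrocnemius of diabetic mice, against 1.85 to 4.58 with a median of 2.46 in their adductor. The control mice had 20.7 to 74.6 RPKM with a median of 38.1 in gastrocnemius, against 1.99 to 10.9 with a median of 3.52 in adductor. No adductor library reached the lowest gastrocnemius library. Differences were 2.87 ± 0.39 in diabetic mice (limma, adjusted p = 1.7e-06) and 3.01 ± 0.39 in control mice (limma, adjusted p = 6.9e-07). The transcript is on chromosome 14 (mm9, 70009283 to 70095641, plus strand). Of the 31-base words of the Loxl2 transcripts in GENCODE M21, 46.4% also occurred in another annotated gene, chiefly Gm21451, and the sources used here do not say how such reads were counted, so its level is uncertain.

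Loxl3, an oxidase required for normal cartilage and palate in mice, ran from 3.69 to 18.8 RPKM with a median of 12.2 in gastrocnemius of diabetic mice, against 0.385 to 0.775 with a median of 0.620 in their adductor. Gastrocnemius of control mice had 4.10 to 28.9 RPKM with a median of 15.0, against 0.345 to 1.81 with a median of 0.539 in adductor. The ratio of means was 20.1 in diabetic and 22.1 in control mice, close to the ratios of 18.0 and 23.9 for Lox, although Loxl3 was several times less abundant than Lox in every group. On the log2(RPKM + 0.5) scale, which understates the change of a gene this low in adductor, the differences were 3.32 ± 0.39 (limma, adjusted p = 2.9e-07) and 3.62 ± 0.39 (limma, adjusted p = 8.2e-08) in diabetic and control mice. Loxl3 lies on chromosome 6 (mm9, 82984218 to 83002558, plus strand) and overlaps Htra2 on the opposite strand, with which 9.84% of its words are shared. No strand setting is recorded, so reads of the overlap cannot be told apart. Htra2 itself averaged 13.1 ± 3.32 RPKM in gastrocnemius and 4.46 ± 0.836 in adductor of diabetic mice, and 13.0 ± 3.92 and 4.80 ± 1.0 in those muscles of control mice (SD, n = 6 each), and was called higher in gastrocnemius as well.

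Loxl4, a family member that carries scavenger receptor domains like Loxl2 and Loxl3, was scarce, with 5 to 148 reads per library. It ran from 0.206 to 1.79 RPKM with a median of 0.763 in gastrocnemius of diabetic mice, against 0.145 to 0.738 with a median of 0.315 in their adductor. Control mice had 0.174 to 1.80 RPKM with a median of 0.584 in gastrocnemius, against 0.0910 to 0.655 with a median of 0.317 in adductor. The muscles overlapped in both mouse groups, unlike those of the other 9 genes. In a fit of all 24016 genes with no filter, Loxl4 differed between the muscles by 0.45 ± 0.32 in diabetic mice (limma, adjusted p = 0.32) and 0.48 ± 0.32 in control mice (limma, adjusted p = 0.30), where 35.6% and 38.4% of genes were called. Loxl4 tracked the sets of libraries: in each of the 4 groups every library of the second set was below every library of the first. On the log2(RPKM + 0.5) scale the mean of the second set was lower by 1.08 in diabetic and 1.21 in control gastrocnemius. It was lower by 0.57 in diabetic and 0.76 in control adductor. That scale, also used in the fit with no filter, understates differences of a gene this low. In the first set Loxl4 ran from 0.706 to 1.79 RPKM in gastrocnemius and 0.201 to 0.738 in adductor of diabetic mice. Control mice of that set had 0.777 to 1.80 and 0.457 to 0.655. In the second set the ranges were 0.206 to 0.212 and 0.145 to 0.171 in diabetic mice. Control mice there had 0.174 to 0.392 and 0.0910 to 0.177. Within a set the muscles were thus separate or overlapped slightly. The part of the sets in its level was not tested. The transcript lies on chromosome 19 (mm9, 42666769 to 42687296, minus strand).

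The lysyl hydroxylases had smaller differences between the muscles than the 4 oxidases tested, by the values alone. Plod1, which hydroxylates lysines of the triple helix, ran from 22.0 to 42.9 RPKM with a median of 28.1 in gastrocnemius of diabetic mice, against 7.47 to 10.3 with a median of 8.62 in their adductor. In control mice Plod1 ran from 23.8 to 42.5 RPKM with a median of 31.2 in gastrocnemius, against 6.27 to 12.7 with a median of 8.10 in adductor. Relative to its mean it was the least spread of the 10 genes in gastrocnemius, and the muscles did not overlap. The differences were 1.71 ± 0.19 in diabetic mice (limma, adjusted p = 1.5e-07) and 1.88 ± 0.19 in control mice (limma, adjusted p = 3.9e-08). Plod1 lies on chromosome 4 (mm9, 147283862 to 147310885, minus strand).

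Plod2, the hydroxylase of lysines in the collagen telopeptides, was the least abundant of the 3 hydroxylases and the most variable. It ran from 4.50 to 17.3 RPKM with a median of 10.1 in gastrocnemius of diabetic mice, against 1.09 to 4.10 with a median of 2.05 in their adductor. Values in control mice were 6.28 to 36.0 RPKM with a median of 15.1 in gastrocnemius, against 1.05 to 4.68 with a median of 2.57 in adductor. Separation was narrow, since the lowest gastrocnemius libraries of both mouse groups stood close to the highest adductor libraries. The differences were 2.00 ± 0.39 in diabetic mice (limma, adjusted p = 0.000148) and 2.52 ± 0.39 in control mice (limma, adjusted p = 7.9e-06). Plod2 is on chromosome 9 (mm9, 92437061 to 92503265, plus strand), and 5.87% of its words were shared, chiefly with Gm38391 on the opposite strand.

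Plod3, which also adds glucose to collagen, ran from 9.85 to 23.1 RPKM with a median of 15.2 in gastrocnemius of diabetic mice, against 4.21 to 5.12 with a median of 4.63 in their adductor. Its range in control mice was 9.97 to 33.3 RPKM with a median of 19.0 in gastrocnemius, against 3.32 to 5.89 with a median of 4.53 in adductor. Adductor levels of Plod3 were nearly uniform, and the gastrocnemius libraries all stood above them. The differences were 1.61 ± 0.25 in diabetic mice (limma, adjusted p = 7.4e-06) and 1.91 ± 0.25 in control mice (limma, adjusted p = 7.1e-07). Plod3 lies on chromosome 5 (mm9, 137462889 to 137472516, plus strand) and shares 10.2% of its words with Znhit1 on the opposite strand. Znhit1 was not called between the muscles, at 0.52 ± 0.33 (limma, adjusted p = 0.19) in diabetic and 0.44 ± 0.33 (limma, adjusted p = 0.25) in control mice.

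Serpinh1, the collagen chaperone, was the most abundant of the 10 genes in every group. It ran from 87.6 to 337 RPKM with a median of 186 in gastrocnemius of diabetic mice, against 16.2 to 27.4 with a median of 21.0 in their adductor. The control range was 95.9 to 426 RPKM with a median of 249.8 in gastrocnemius, against 14.4 to 47.1 with a median of 21.1 in adductor. All gastrocnemius libraries lay above all adductor libraries, although control adductor replicate 2 was far above the rest of its group. The differences were 2.98 ± 0.35 in diabetic mice (limma, adjusted p = 3.3e-07) and 3.33 ± 0.35 in control mice (limma, adjusted p = 6.8e-08). Its transcript lies on chromosome 7 (mm9, 106493885 to 106501749, minus strand).

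Bmp1, the procollagen C-proteinase, which also cuts the Lox precursor to its active form, ran from 13.3 to 40.1 RPKM with a median of 20.6 in gastrocnemius of diabetic mice, against 1.72 to 4.74 with a median of 3.21 in their adductor. For control mice the range was 18.1 to 54.3 RPKM with a median of 25.7 in gastrocnemius, against 1.61 to 9.52 with a median of 2.61 in adductor. The groups were separate in both mouse groups. The differences were 2.65 ± 0.36 in diabetic mice (limma, adjusted p = 1.8e-06) and 2.94 ± 0.36 in control mice (limma, adjusted p = 3.7e-07). Bmp1 lies on chromosome 14 (mm9, 70874362 to 70920067, minus strand).

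**Figure D2:**
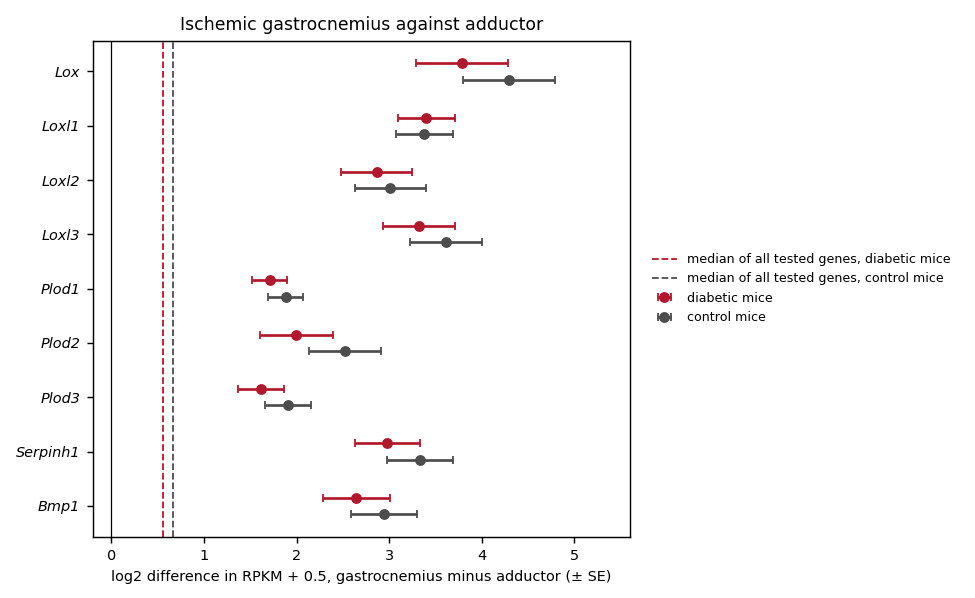
Log2 difference in RPKM + 0.5, gastrocnemius minus adductor (± SE), for the 9 genes tested, in diabetic mice (red, 6 libraries against 6) and control mice (grey, 6 against 6). Dashed lines mark the median of all genes tested, 0.55 and 0.66; Lox lies farthest to the right and Plod1 and Plod3 nearest to the lines.

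Since the muscles were separate over all libraries, they were necessarily separate within each set of libraries. In fits of each set alone, all 9 genes were called higher in gastrocnemius in both mouse groups. Of all 12382 genes, the first set called 7101 higher in diabetic and 7347 in control mice, and the second set 4363 and 6349. Differences in the first set ran from 1.77 (Plod3) to 4.15 (Lox) in diabetic mice and from 1.88 (Plod1) to 4.33 (Lox) in control mice. In the second set, with 2 diabetic libraries per muscle, they ran from 1.23 (Plod1) to 3.25 (Loxl1) in diabetic mice and from 1.85 (Plod3) to 4.27 (Lox) in control mice.

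Summed markers of several other cell types, though not all, were also higher in gastrocnemius. Of the 6 muscle fibre markers, 2 in diabetic mice and 3 in control mice were called lower. The summed RPKM of 6 fibroblast markers (Pdgfra, Dcn, Lum, Dpt, Col1a1 and Mfap5) ran from 902 to 2933 in gastrocnemius and 207 to 328 in adductor of diabetic mice, and from 1165 to 3622 and 181 to 616 in those muscles of control mice. Col1a1, which is also a substrate here, made up most of that gap. Without it the other 5 markers summed to 409 to 568 in gastrocnemius and 175 to 231 in adductor of diabetic mice, and to 497 to 827 and 165 to 342 in control mice. All 6 were called higher in both mouse groups, and after median-of-ratios scaling 3 in diabetic and 5 in control mice. The sum of 6 macrophage markers ran from 273 to 1140 in gastrocnemius and 42.2 to 90.2 in adductor of diabetic mice, and from 343 to 1365 and 25.1 to 220.4 in control mice, and all 6 were called higher (5 in diabetic and 6 in control mice after that scaling). The sum of 4 tendon markers was 162 to 338 in gastrocnemius and 9.16 to 24.2 in adductor of diabetic mice, and 188 to 428 and 13.2 to 38.5 in control mice. Endothelial, cartilage and satellite cell sums were also separate and higher in gastrocnemius, and smooth muscle sums in diabetic mice only. Adipocyte sums overlapped, at 9.37 to 127 in gastrocnemius and 15.9 to 50.7 in adductor of diabetic mice. In control mice they were 4.32 to 86.6 and 16.7 to 42.8. Neutrophil sums overlapped too, at 0.518 to 7.52 and 0.722 to 10.7 in diabetic mice. For control mice they were 0.474 to 17.9 and 0.805 to 13.4. None of the listed fibroblast, macrophage or tendon markers was at 0 in all 6 libraries of a group. Their part in the levels of the 10 genes was not tested. In bulk tissue, more cells of a type and more RNA per cell cannot be told apart.

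The make-up of the enzyme families was compared as shares of their summed RPKM, as a description. Lox and Loxl1 together made up most of the lysyl oxidase transcripts. Lox took 31.8% ± 8.90 of the family in diabetic and 36.6% ± 7.69 in control gastrocnemius, and 23.4% ± 5.53 in diabetic and 22.3% ± 9.11 in control adductor (SD, n = 6 each). Loxl1 took 45.8% ± 8.84 and 39.3% ± 7.10 in diabetic and control gastrocnemius, and 47.9% ± 4.58 and 46.5% ± 5.11 in diabetic and control adductor. The mean share of Lox was higher in gastrocnemius than in adductor, with overlapping libraries, and Loxl1 had the largest mean share in all 4 groups. Loxl2 held 15.1% ± 2.83 and 17.2% ± 4.0 in diabetic and control gastrocnemius, and 21.3% ± 2.66 and 25.3% ± 7.40 in diabetic and control adductor. Among the hydroxylases Plod1 made up 54.0% ± 3.81 and 48.3% ± 8.51 in diabetic and control gastrocnemius, and 55.8% ± 4.48 and 54.5% ± 2.94 in diabetic and control adductor. Plod1 was thus about as large a share of its family in one muscle as in the other. Plod2 took 18.1% ± 4.55 and 24.8% ± 7.93 in diabetic and control gastrocnemius, against 14.2% ± 6.72 and 16.4% ± 6.00 in diabetic and control adductor. In total the oxidases summed to 168 ± 77.9 RPKM in diabetic and 242 ± 122 in control gastrocnemius, and 13.3 ± 4.32 in diabetic and 18.3 ± 11.3 in control adductor. The hydroxylases summed to 57.0 ± 17.8 and 71.5 ± 25.8 RPKM in diabetic and control gastrocnemius, and 15.7 ± 1.76 and 15.7 ± 4.11 in diabetic and control adductor. In adductor the families were thus of like size, and in gastrocnemius the oxidases summed to well above the hydroxylases.

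**Figure D3:**
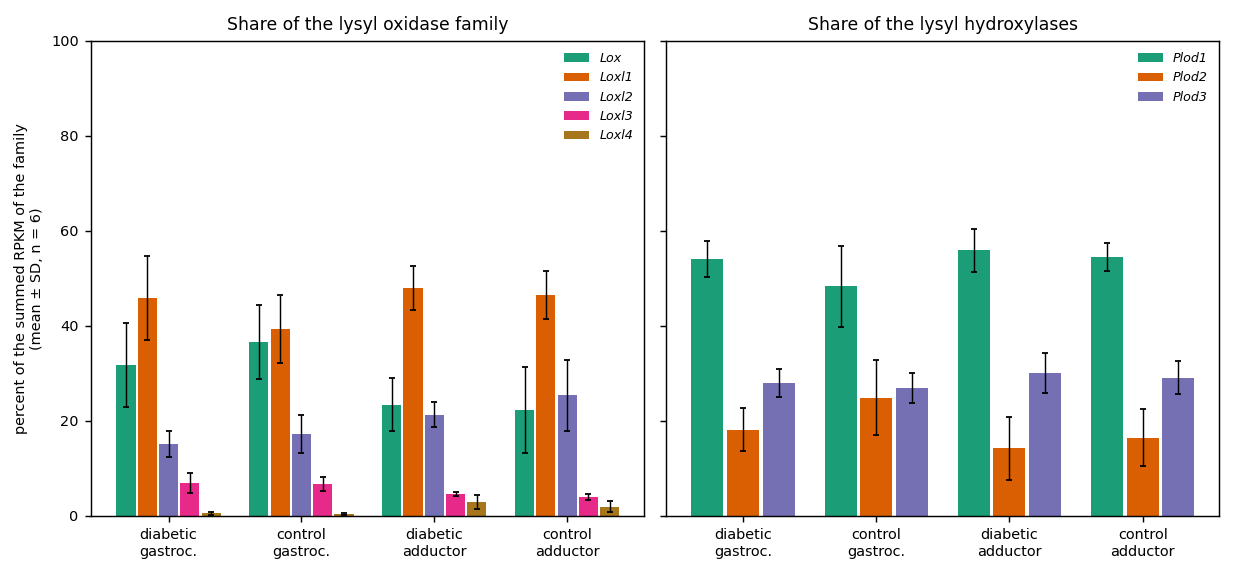
Percent of the summed RPKM of the lysyl oxidase family (left) and of the lysyl hydroxylases (right) taken by each gene, as mean ± SD of 6 libraries in each group. Loxl1 and Lox lead the first family and Plod1 the second in all 4 groups except that Loxl2 stands above Lox on average in control adductor, 25.3% against 22.3%.

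Relative to fibrillar collagen transcripts, the enzymes showed different patterns. The mean RPKM of Col1a1, Col1a2 and Col3a1, the main chains of the fibrils, averaged 924 ± 557 in gastrocnemius and 47.5 ± 28.0 in adductor of diabetic mice, and 1180.0 ± 633 and 73.3 ± 91.3 in those muscles of control mice (SD, n = 6 each). Each gene was divided by that mean in its own library, and the log2 ratios are given as a description with no test. For Lox the mean log2 ratio was -4.08 in gastrocnemius and -3.88 in adductor of diabetic mice, and -3.77 in each muscle of control mice. Loxl3 likewise had about the same ratio in each muscle, -6.29 in gastrocnemius and -6.22 in adductor of diabetic mice, and -6.25 and -6.17 in control mice. The like means of control mice hid opposite differences within the sets of libraries. For Lox in control mice, the ratio in gastrocnemius minus that in adductor was 0.62 in the first set and -0.62 in the second (3 libraries against 3 in each). For Loxl3 in control mice it was 0.09 and -0.24. In diabetic mice it was -0.02 and -0.57 for Lox and -0.06 and -0.11 for Loxl3. The other 8 genes had a lower ratio in gastrocnemius in each set of both mouse groups. The ratio of Serpinh1 was lower in gastrocnemius, -2.27 against -1.05 in adductor of diabetic mice, and -2.19 against -1.03 in control mice, with overlapping libraries. For Plod1 it was -4.76 in gastrocnemius against -2.30 in adductor of diabetic mice, and -5.02 against -2.44 in control mice. Plod3 had ratios of -5.72 in gastrocnemius against -3.21 in adductor of diabetic mice, and -5.85 against -3.35 in control mice. Plod1 and Plod3 were therefore much scarcer per collagen transcript in gastrocnemius, and their muscles did not overlap in diabetic mice but did in control mice. Plod2 was lower in gastrocnemius by 1.95 in diabetic and 1.75 in control mice, and Loxl1 by 0.72 and 1.05, with overlapping libraries. Bmp1 and Loxl2 were lower per collagen transcript in gastrocnemius in every library, by 1.39 and 1.14 in diabetic mice and by 1.37 and 1.33 in control mice. Loxl4 had the widest gap, lower by 3.34 in diabetic and 3.52 in control mice with no overlap. For all of these genes but Loxl4, whose muscles overlapped in RPKM, the enzyme itself was higher in RPKM in gastrocnemius, and the collagens differed by more.

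**Figure D4:**
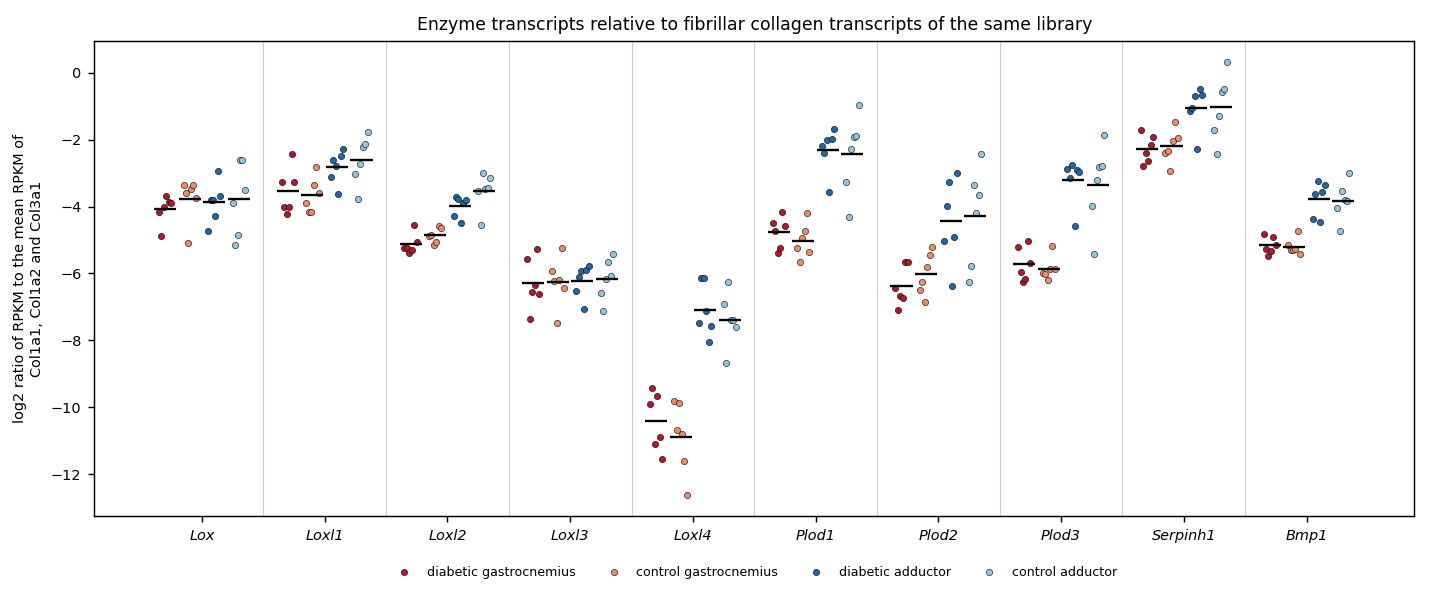
Log2 ratio of the RPKM of each gene to the mean RPKM of Col1a1, Col1a2 and Col3a1 of the same library, by group; points are libraries and bars the means of 6. The gastrocnemius and adductor points of Lox and Loxl3 lie at about the same height, and those of Plod1, Plod3 and Loxl4 lie far apart.

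Other genes of collagen folding, modification and processing were counted from a list of 26, of which 22 were tested. In diabetic mice 17 were called higher in gastrocnemius, 0 lower, and 5 were not called, with a median difference of 2.45. In control mice 18 were called higher, 0 lower, and 4 were not called, with a median of 2.65. Of all genes tested, 48.1% were called higher and 8.83% lower in diabetic mice, and 54.4% and 8.7% in control mice. The median over the 9 enzymes tested was 2.87 and 3.01 in diabetic and control mice, and over all genes 0.55 and 0.66. Fkbp10, a foldase that acts with Plod2 on telopeptide lysines in human cells, stood at 4.22 ± 0.37 (limma, adjusted p = 7.9e-09) in diabetic mice and 4.13 ± 0.37 (limma, adjusted p = 1.0e-08) in control mice. It averaged 41.7 ± 15.1 RPKM in gastrocnemius and 1.63 ± 0.450 in adductor of diabetic mice, and 51.4 ± 22.9 and 2.38 ± 1.56 in control mice. Fmod, the collagen-binding proteoglycan fibromodulin, was higher by 3.67 ± 0.48 in diabetic mice (limma, adjusted p = 1.1e-06) and 3.94 ± 0.48 in control mice (limma, adjusted p = 3.6e-07). Fn1, fibronectin, which binds Bmp1 and Lox, was higher by 3.47 ± 0.58 in diabetic mice (limma, adjusted p = 2.5e-05) and 3.98 ± 0.58 in control mice (limma, adjusted p = 3.8e-06). Among the largest differences were also Sparc, a collagen-binding matricellular protein, at 3.32 ± 0.34 in diabetic mice, and P4ha3, a prolyl hydroxylase subunit, at 3.59 ± 0.38 in control mice. In adductor P4ha3 stayed under 1 RPKM in every library, at most 0.197 in diabetic and 0.711 in control mice. It thus passed the filter through gastrocnemius, and its calls follow in part from that. Pcolce, the enhancer of Bmp1 on procollagen, was higher by 2.82 ± 0.28 in diabetic mice (limma, adjusted p = 4.45e-08) and 2.93 ± 0.28 in control mice (limma, adjusted p = 2.7e-08). Its relative Pcolce2 was not called, at -0.13 ± 0.30 and -0.01 ± 0.30 in diabetic and control mice on the RPKM scale.

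The calls of 3 listed genes, P4ha1, P4ha2 and Pcolce2, changed with the scaling. After median-of-ratios scaling, Pcolce2 was called lower in gastrocnemius, at -0.71 in diabetic mice (limma, adjusted p = 0.037) and -0.72 in control mice (limma, adjusted p = 0.035). P4ha2, a prolyl hydroxylase subunit, was higher by 0.64 in diabetic and 1.03 in control mice on the RPKM scale (limma, adjusted p = 0.010 and 0.00014), and not called after that scaling (limma, adjusted p = 0.98 and 0.20). P4ha1, the main catalytic subunit of prolyl hydroxylase, averaged 10.9 ± 3.56 RPKM in gastrocnemius and 9.60 ± 0.726 in adductor of diabetic mice, and 14.2 ± 5.66 and 7.53 ± 1.68 in control mice. On the RPKM scale it was higher in gastrocnemius of control mice, by 0.81 ± 0.22 (limma, adjusted p = 0.0027), and not called in diabetic mice, at 0.12 ± 0.22 (limma, adjusted p = 0.66). After median-of-ratios scaling it was lower in gastrocnemius of diabetic mice, at -0.53 (limma, adjusted p = 0.0060), and not called in control mice, at 0.05 (limma, adjusted p = 0.80). The difference between its diabetes effects was itself not called, at -0.69 ± 0.31 (limma, adjusted p = 0.9998). Under that scaling the counts over the 22 genes were 16 higher and 2 lower in diabetic mice, and 16 higher and 1 lower in control mice. Over all 12382 genes they were 3396 higher and 3248 lower in diabetic mice, and 3520 higher and 3279 lower in control mice. The substrates Col1a1, Col1a2, Col3a1, Col5a1, Col5a2 and Eln were all called higher in gastrocnemius, by 1.32 (Eln) to 4.53 (Col1a1) in diabetic mice and by 1.48 (Eln) to 5.0 (Col1a1) in control mice, under both scalings. Eln, the elastin that Lox and Loxl1 also crosslink, was thus the substrate that differed least.

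The comparison of diabetic with control mice gave no call among the enzymes in either muscle. In gastrocnemius 0 of 9 genes passed adjusted p under 0.05 in limma, 0 had an unadjusted p under 0.05, and limma-voom on the recovered reads called 0, where 0.00808% of all genes tested were called. In adductor 0 of 9 passed, 0 had an unadjusted p under 0.05 and voom called 0, where 0.0323% of all genes were called. A missed threshold does not show that the groups were alike. With the adjustment over all genes tested, differences of several times the standard errors below could have been missed. Diabetic and control libraries overlapped for every one of the 9 genes in each muscle. Over all genes, groups lay apart for 0.0323% of genes in each direction in gastrocnemius, and for 0.194% higher and 0.0242% lower in adductor.

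In gastrocnemius all 9 differences were below 0, with a median of -0.41, against -0.06 over all genes tested. Plod2 averaged 10.6 ± 4.71 RPKM in diabetic and 18.8 ± 11.1 in control gastrocnemius, a difference of -0.71 ± 0.39. Lox averaged 58.7 ± 42.2 RPKM in diabetic and 95.1 ± 61.0 in control gastrocnemius, a difference of -0.69 ± 0.50. Loxl2 averaged 24.9 ± 11.7 RPKM in diabetic and 41.2 ± 23.0 in control gastrocnemius, a difference of -0.64 ± 0.39. These 3 genes had the differences of greatest size, each with an adjusted p of 0.9995 in limma, and 1 of 6 diabetic libraries was above the control median for Plod2 and Loxl2 and 2 of 6 for Lox. Serpinh1 averaged 187 ± 95.0 RPKM in diabetic and 257 ± 123 in control gastrocnemius, at -0.46 ± 0.35. The remaining 5 genes ran from -0.12 ± 0.19 (Plod1) to -0.41 ± 0.39 (Loxl3). Over all libraries Loxl4 was level in the unfiltered fit, at 0.771 ± 0.582 RPKM in diabetic and 0.778 ± 0.657 in control gastrocnemius and a difference of 0.03 ± 0.32. That value mixes the sets, which held 4 and 2 diabetic but 3 and 3 control libraries. Within each set its mean log2(RPKM + 0.5) was lower in diabetic gastrocnemius, with overlapping libraries. It was 0.59 against 0.80 in the first set and -0.50 against -0.41 in the second. The 9 genes move together across libraries, so the count of 9 below 0 is not a count of separate observations. Within each set of libraries the 9 differences were again below 0, from -0.10 (Plod1) to -0.75 (Loxl2) in the first and from -0.28 (Loxl1) to -1.03 (Lox) in the second. Over all genes tested the median was -0.05 in the first set and -0.16 in the second.

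In adductor 7 of the 9 differences were below 0, with a median of -0.11, against 0.04 over all genes. The difference of greatest size was that of Loxl2, which averaged 2.83 ± 1.01 RPKM in diabetic and 4.82 ± 3.50 in control adductor, at -0.49 ± 0.39 (limma, adjusted p = 1.0). Loxl1 averaged 6.29 ± 1.69 RPKM in diabetic and 8.43 ± 5.28 in control adductor, at -0.27 ± 0.31. The hydroxylases Plod1 and Plod3 were close to 0, at 0.05 ± 0.19 and 0.06 ± 0.25. The direction turned with the set of libraries. In the first set all 9 genes were below 0, from -0.05 (Plod3) to -1.15 (Loxl2), and in the second set all 9 were above 0, from 0.10 (Plod2) to 0.58 (Bmp1). The median over all genes tested also differed, at -0.01 in the first set and 0.11 in the second. Plod2 and Loxl2 thus lay near that median in the second set. For Loxl2 and Bmp1, every control adductor library of the first set lay above every one of the second. Their second-set means were lower by 1.44 and 1.21 in log2(RPKM + 0.5), while the sets of the other genes tested overlapped there. Control adductor replicate 2, a library of the first set, had the highest level of its group for all 9 genes. Without that library the differences were 0.01 for Lox, 0.09 for Loxl3, 0.11 for Serpinh1 and 0.25 for Bmp1, and -0.22 for Loxl2. The same library, replicate 2, also had the highest summed macrophage markers of its group, 220.4 RPKM against a group median of 40.3, and the highest fibroblast markers, 616 against 235 (342 against 207 without Col1a1). The part of these markers in the adductor differences was not tested.

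**Figure D5:**
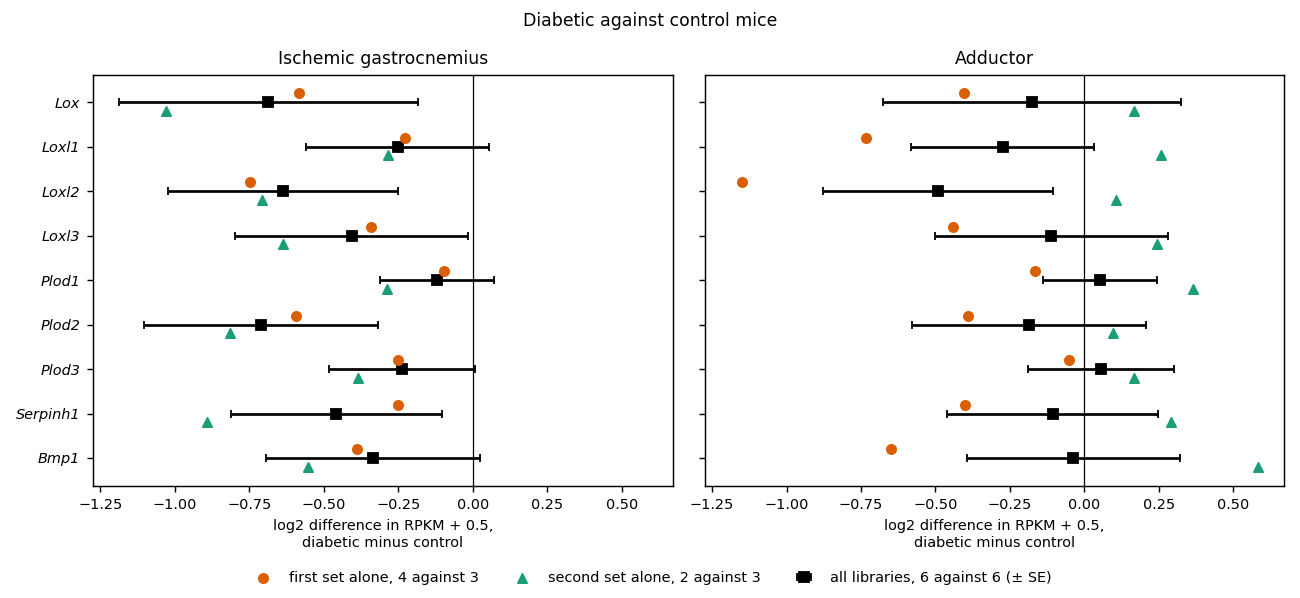
Log2 difference in RPKM + 0.5, diabetic minus control, for the 9 genes tested in gastrocnemius (left) and adductor (right); squares are all libraries (6 against 6, ± SE), circles the first set alone (4 against 3) and triangles the second set alone (2 against 3). In gastrocnemius all points lie below 0, and in adductor circles lie below 0 and triangles above it.

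The difference between the diabetes effects of the muscles, gastrocnemius minus adductor, was called for 0 of 9 genes in limma, with 0 at an unadjusted p under 0.05 and 0 by voom, where 0% of all 12382 genes were called and 154 had an unadjusted p under 0.05. It was below 0 for 8 of 9, with a median of -0.30 against -0.11 over all genes. The values ran from -0.52 ± 0.56 (Plod2) and -0.51 ± 0.71 (Lox) to 0.02 ± 0.43 (Loxl1), each smaller than its standard error.

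Across libraries the 9 genes varied together. After the mean of each group and set was removed, the Pearson correlation of log2(RPKM + 0.5) over 24 libraries ran from 0.76 to 0.94 (median 0.87) for the 28 pairs without Plod2. The 8 pairs with Plod2 ran from 0.46 to 0.72 (median 0.66). These values describe libraries that share a total, a tissue piece and its mix of cells, and carry no test. Single libraries led or trailed for most of the genes. Diabetic gastrocnemius replicate 3 was the highest of its group for 8 of 9 genes and replicate 2 the lowest for 7. In control gastrocnemius, replicate 2 was the highest for 8 and replicate 3 the lowest for 8. In diabetic adductor, replicate 4 was the highest for 5 and replicate 1 the lowest for 7.

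By the same measure, the 3 genes most like each enzyme were named. For Lox they were Vgll3 (0.97), Ugdh (0.96) and Vcan (0.96), and for Loxl1 they were Fstl1 (0.97), Bgn (0.97) and Srd5a3 (0.96). Serpinh1 was most like Numbl (0.98), Cnn3 (0.97) and Leprel2 (0.97), and Bmp1 most like Olfml2b (0.97), Plxnb2 (0.97) and Tle3 (0.95). Plod3 was most like Ehd1, Calr and Glipr2 (0.97, 0.97 and 0.96), and Plod1 most like Igsf3, Lasp1 and Ptk7 (0.96, 0.96 and 0.95). Loxl2 was most like Sulf2, Acap3 and Thbs2 (0.97, 0.96 and 0.96), and Loxl3 most like Nckap5l, Actb and Arhgap23 (0.98, 0.97 and 0.97). Plod2 had no gene as close, its nearest being Sh3kbp1 (0.90), Slc19a1 (0.89) and Sept11 (0.88).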

How the data were processed

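The authors deposited RPKM values for RefSeq transcripts, counted on exons by HOMER with mouse build mm9 per the file headers. The submitters' processing notes name TopHat, HOMER and mm9 with no versions. The treatment of strand and of reads with several matches is not given in the sources used here. The table held 33022 transcripts in 24 columns, 1 per library, with none pooled. Multiplying RPKM by transcript length and library total gave whole reads within 0.01 for 99.97% of the values above 0. A few very abundant transcripts can shift all RPKM of a library, since they share 1 total.

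A single transcript per symbol was kept, that of highest mean RPKM, and a pseudocount of 0.5 was added. The log2 values of 12382 genes, those that reached 1 RPKM in 6 or more libraries, went into a limma 3.58.1 fit (R 4.3.3) of 4 group means with a variance trend and Benjamini-Hochberg adjustment within each contrast at 0.05. Tables and figures were made with Python 3.11.15 and pandas 2.3.3. The fit was tested on simulated data in which genes varied independently and libraries had no sets. That test cannot show how the fit handles the sets or genes that vary together. Named were the 10 enzymes, the listed companion and substrate genes (up to 4 per direction by size, and those that act on an enzyme), and for each enzyme tested the 3 genes of highest correlation. The enzymes, lists, motifs and tests were chosen with earlier results of these data known. Same-numbered muscles deviated together (correlations of their deviations from group means 0.55 to 0.74 in control and 0.25 to 0.71 in diabetic mice, 6 pairs each). The numbers were therefore treated as pairing the muscles, but in the replicate block only. The fit of 4 group means, which gave the muscle differences and p-values printed here, holds no pairing. Same-numbered libraries also share a set, and with the set means removed too the correlations were -0.09 to 0.47 and 0.02 to 0.63; the labels do not state a pairing. Other scalings, pseudocounts and filters, single sets, a replicate block, voom on the recovered reads and leaving out each library were tried.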

Additional observations from a re-analysis of the deposited data

Results flagged for a closer look

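In control adductor, replicate 2 stood apart from the other 5 libraries as the highest, by the gap to the nearest value relative to the range of the group. It had 18.6 RPKM of Loxl1, 1.81 RPKM of Loxl3 and 47.1 RPKM of Serpinh1. Of the 40 checks of a gene in a group, these 3 passed, and chance flags about 1 in 20 of separate checks. The genes vary together across libraries and all 3 flags fell on the same library, so they are not separate observations.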

How the results depend on the processing

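The counts of enzymes called, 9 between the muscles in diabetic and in control mice and 0 in the diabetes comparisons and their difference, were the same under every alternative run, with other pseudocounts, filters, scalings, single sets and each library left out. With the replicate block the counts were 9, 9, 0, 0 and 0, and it changed no enzyme's call. For the muscles and the difference of the diabetes effects, the block joined same-numbered muscles of a mouse group. For the diabetes comparisons it joined same-numbered control and diabetic libraries, which no label pairs and whose correlations ran from -0.66 to 0.82. There, control replicate 4 is of the second set and diabetic replicate 4 of the first. No enzyme's difference between the muscles, or between diabetic and control gastrocnemius, turned direction.
In adductor, the second set alone turned Lox to 0.17, Loxl1 to 0.26, Loxl2 to 0.11, Loxl3 to 0.24, Plod2 to 0.10, Serpinh1 to 0.29 and Bmp1 to 0.58. The first set alone turned Plod1 to -0.16 and Plod3 to -0.053, and quantile normalization turned them to -0.0055 and -0.015. Leaving out 1 library each gave Lox -0.42 to 0.014, Loxl3 -0.20 to 0.086, Plod1 -0.025 to 0.17, Plod3 -0.018 to 0.13, Serpinh1 -0.23 to 0.11 and Bmp1 -0.20 to 0.25. For the difference of the diabetes effects, the second set alone turned Loxl1 to -0.54, and the first set alone turned Loxl2 to 0.40, Loxl3 to 0.10, Plod1 to 0.069, Serpinh1 to 0.15 and Bmp1 to 0.26; leaving out 1 library each gave Loxl1 -0.23 to 0.19 and Loxl2 -0.41 to 0.062. The cause was not tested. Loxl4 is limited by depth, with 5 to 148 reads per library.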
